A study of Mus musculus with 2 samples.

Results

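The hormone genes of islet cells other than β cells were examined in single cells of mouse pancreatic islets. They are Gcg, Sst, Ppy, Pyy and Ghrl, which were taken by their symbols from the gene list of the count files and make up 5 of 31053 genes. The islets came from male mice of the C57/B6 strain at 16 weeks of age and were run as 2 droplet libraries, in which every captured transcript carries a unique molecular identifier (UMI). The WT library came from wild-type mice, for which the labels name no diet. The study's methods state that mice outside the high-fat diet group received standard chow. The HFD library came from mice that were given a diet with 60% of its calories as fat over 10 weeks, the first of them at an age of 6 weeks. Each library held the pooled islets of 4 mice after removal of dead cells, so the mice could not be separated, and diet, islet preparation and library cannot be told apart. With a single library per diet there is no replicate, so differences between the diets were not tested. All 95% intervals cover counting error only.

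Gcg encodes proglucagon, which α cells cut to glucagon, the hormone that raises blood glucose between meals. Sst encodes somatostatin, with which δ cells hold back the secretion of their neighbours. Ppy and Pyy encode pancreatic polypeptide and peptide YY, related peptides that signal through neuropeptide Y receptors and reduce appetite and exocrine secretion. Ghrl encodes ghrelin, the hunger hormone, which is made mainly in the stomach and in a rare islet cell type that is most abundant before birth.

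All 5 genes lie on the reverse strand of the GRCm38 build as protein-coding genes. Gcg lies at chr2:62474530-62483650, Sst at chr16:23889573-23890958 and Ghrl at chr6:113716119-113719880. Ppy (chr11:102099930-102101319) and Pyy (chr11:102106676-102107832) are neighbours on chromosome 11 with 5356 bases between them. The promoters of the 4 genes that were high in cells of both libraries are shown, from 250 bases before to 50 bases after the start of transcription, 5′ to 3′ on the strand of the gene (RefSeq, GRCm38.p6). Capitals mark TATAAA on either strand and the cAMP response element TGACGTCA, and the third motif searched, TAATTA, had no match in these 4 windows.
Gcg, chr2:62483604-62483903: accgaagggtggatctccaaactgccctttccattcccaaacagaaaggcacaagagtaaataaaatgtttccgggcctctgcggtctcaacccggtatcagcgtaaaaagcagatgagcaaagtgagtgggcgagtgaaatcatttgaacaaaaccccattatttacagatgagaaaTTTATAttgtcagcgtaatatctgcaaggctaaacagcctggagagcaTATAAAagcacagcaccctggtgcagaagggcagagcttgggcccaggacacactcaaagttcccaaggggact
Sst, chr16:23890795-23891094: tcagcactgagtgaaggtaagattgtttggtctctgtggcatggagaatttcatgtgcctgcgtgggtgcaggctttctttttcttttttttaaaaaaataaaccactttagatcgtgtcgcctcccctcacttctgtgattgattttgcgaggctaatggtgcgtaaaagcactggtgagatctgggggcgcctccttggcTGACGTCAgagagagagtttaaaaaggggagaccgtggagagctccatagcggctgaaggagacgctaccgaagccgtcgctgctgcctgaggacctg
Ppy, chr11:102101270-102101569: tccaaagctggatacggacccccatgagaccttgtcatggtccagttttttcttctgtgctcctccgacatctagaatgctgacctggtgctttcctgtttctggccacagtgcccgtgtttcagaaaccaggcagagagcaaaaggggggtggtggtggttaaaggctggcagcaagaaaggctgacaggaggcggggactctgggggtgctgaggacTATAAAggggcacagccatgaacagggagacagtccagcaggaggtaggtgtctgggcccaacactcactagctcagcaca
Pyy, chr11:102107783-102108082: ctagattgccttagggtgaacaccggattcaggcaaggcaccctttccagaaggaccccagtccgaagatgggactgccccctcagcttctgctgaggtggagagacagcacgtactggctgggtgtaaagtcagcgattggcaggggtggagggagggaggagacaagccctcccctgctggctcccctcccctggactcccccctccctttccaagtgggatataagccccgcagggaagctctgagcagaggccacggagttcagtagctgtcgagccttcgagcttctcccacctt
TATAAA began at bases -72 and -24 of Gcg and at -31 of Ppy, and TGACGTCA began at -48 of Sst, counted from the start of transcription. Of all 32851 promoters of this length, 13.6% held TATAAA, 1.79% held TGACGTCA and 5.29% held TAATTA on either strand. A match is a description of the letters and not a bound site.

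Barcodes were kept with at least 500 genes and at most 20% mitochondrial UMIs, with no maximum of UMIs. This left 2600 of 3895 WT barcodes and 7297 of 8951 HFD barcodes, with median depths of 24379.5 and 11322 UMIs. Among the kept barcodes 3 had the same sequence in both libraries. Cells were clustered without the 5 hormone genes and the insulin genes and were named from marker genes, so the hormones took no part in the names. This gave 64 α-like cells in WT and 218 in HFD, 51 and 129 δ-like cells, and 2095 and 6449 β-like cells, in which Ins1 and Ins2 made up 60.05% and 56.8% of UMIs. A small cluster of 17 WT and 30 HFD cells, with Tspan8, Fgb, Calb1 and Kcnk3 among its leading genes, stayed unnamed, because no marker set for cells of pancreatic polypeptide had been made. Among the clusters that stayed unnamed, it was set apart as the one with the most Ppy. Endothelial-like cells (138 and 154) and immune-like cells (46 and 227) served to measure hormone RNA in cells that should not make it.

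By level, Gcg was highest in α-like cells, Sst in δ-like cells, and Ppy and Pyy in the unnamed cluster. Levels are CPM, the UMIs of the gene scaled to the UMIs of the class, and because 1 UMI is counted per captured transcript from its 3′ end, they were compared between genes without a length correction. Gcg stood at 230007 CPM in α-like cells of WT and 267146 CPM in those of HFD. Sst stood at 151944 CPM in δ-like cells of WT and 131586 CPM in those of HFD. Sst was not confined to them, since α-like cells held 12666 and 13164 CPM, and the far larger β-like class held 84103 Sst UMIs in WT and 64017 in HFD against 62593 and 65001 in δ-like cells. Sst made up at least 1% of UMIs in 11 of 64 WT and 46 of 218 HFD α-like cells, and in 77 of 2095 and 140 of 6449 β-like cells. The median cell of both classes held no Sst UMI in either library.

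Ppy was highest in the cells of the unnamed cluster, with 351581 CPM (WT) and 372722 CPM (HFD). Pyy was highest there too, with 152298 and 113185 CPM. Since the cells of this cluster were set apart by their Ppy, its level there is a description. In these cells the median Ppy level of single cells was 341985 CPM in WT, from 112368 to 515697 CPM. Ppy and Pyy were next highest in δ-like cells, where Ppy held 39379 and 34920 CPM and Pyy 42000 and 41477 CPM. In α-like cells Ppy held 15980 and 19503 CPM, and Pyy held 23072 and 34692 CPM. For both genes the order of the 4 endocrine classes, with β-like cells last, was the same in the libraries.

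**Figure D1:**
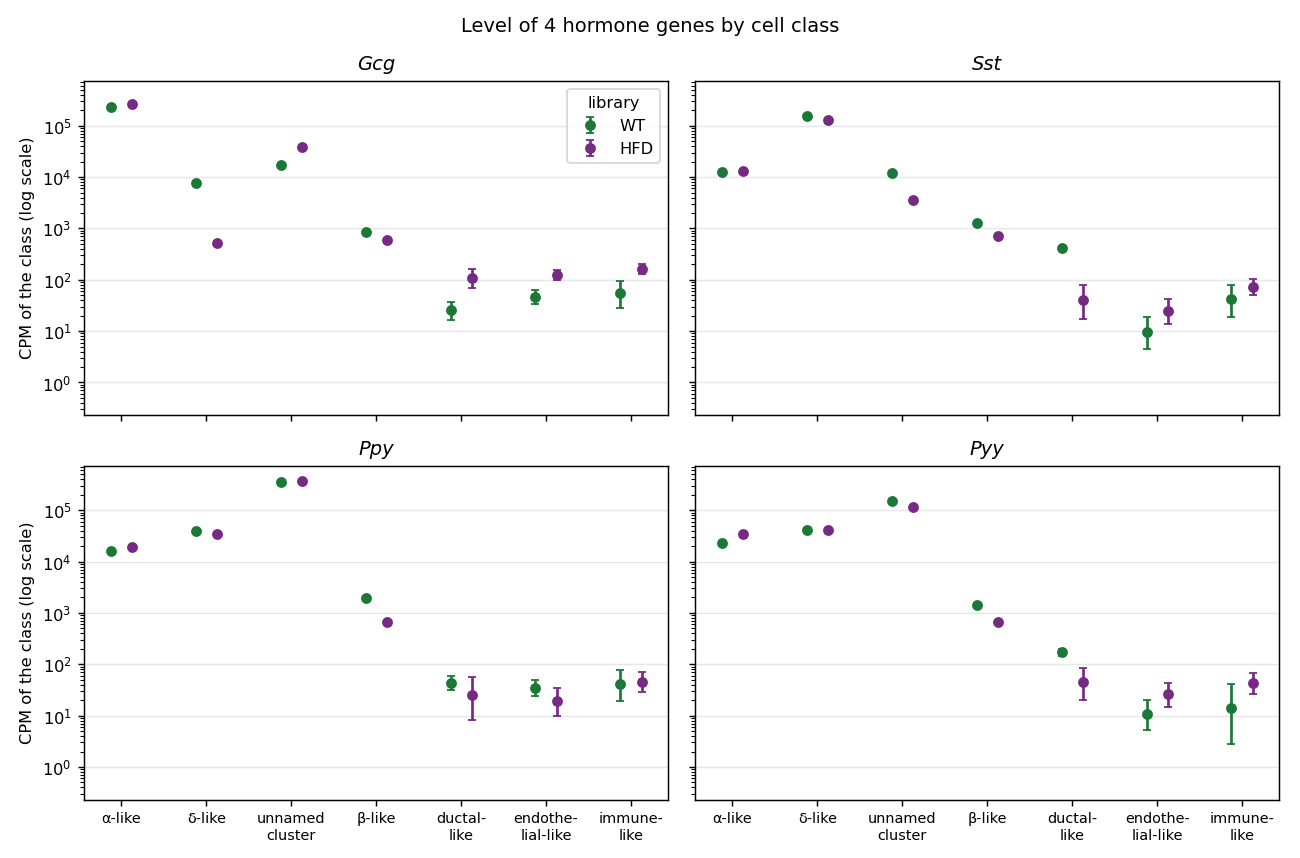
Level of Gcg, Sst, Ppy and Pyy in CPM (vertical log axis) in 7 cell classes of the WT and HFD libraries, with exact Poisson 95% intervals that are hidden behind most points. Gcg peaks in α-like cells and Sst in δ-like cells, Ppy and Pyy peak in the cells of the unnamed cluster and stay above 10000 CPM in α-like and δ-like cells, and all 4 are lowest in endothelial-, immune- and ductal-like cells.

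Single cells were called high in a hormone gene when it made up at least 1% of their UMIs. Gcg was high in 97 WT cells (3.73%, exact Clopper-Pearson interval 3.04 to 4.53%) and 284 HFD cells (3.89%, 3.46 to 4.36%). Sst was high in 144 WT cells (5.54%, 4.69 to 6.49%) and 318 HFD cells (4.36%, 3.90 to 4.85%). Pyy, a hormone best known from the gut, was high in more cells than Gcg or Sst at this level, with 190 in WT (7.31%, 6.34 to 8.38%) and 447 in HFD (6.13%, 5.59 to 6.70%). The order turned at higher levels, since more than 10% of UMIs were reached by Pyy in 14 WT and 34 HFD cells, by Gcg in 61 and 217 and by Sst in 41 and 103.

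Ppy was the member whose share of cells differed most between the libraries among the 4 genes found in both, with 153 WT cells (5.88%, 5.01 to 6.86%) and 282 HFD cells (3.86%, 3.43 to 4.33%). The shares rest on a cut through a continuous range for Sst, Ppy and Pyy: 70 WT and 144 HFD cells lay between 0.5% and 2% for Sst, 78 and 190 for Ppy, and 116 and 250 for Pyy. For Gcg only 12 and 22 cells lay in that range. The values nearest to the cut were 1.04% and 0.933% for Gcg in WT, and 1.0003% and 0.9998% for Pyy in HFD.

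At the 1% level, most cells with a high level of 1 of these hormones had a high level of another. Of the cells high in at least 1 member, 69.9% of 276 WT cells (64.1 to 75.3%) and 71.0% of 627 HFD cells (67.2 to 74.5%) were high in 2 or more. With high set from 5% of UMIs these shares were 42.3% and 40.1%. Part of these cells also held insulin, and without cells in which Ins1 and Ins2 made up at least 20% of UMIs the shares were 83.5% of 133 WT cells (76.0 to 89.3%) and 85.9% of 361 HFD cells (81.8 to 89.3%).

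Ppy and Pyy were the pair found together most often. Of Ppy-high cells, 86.9% in WT (80.5 to 91.8%) and 90.8% in HFD (86.8 to 93.9%) were also Pyy-high, and from 5% of UMIs the values were 45.2% and 64.3%. In the other direction, 70.0% of WT and 57.3% of HFD Pyy-high cells were Ppy-high. Sst-high cells were also Pyy-high in 77.8% of WT and 74.5% of HFD cells, and also Ppy-high in 59.0% and 51.6%.

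Gcg-high cells were also Pyy-high in 55.7% of WT (45.2 to 65.8%) and 66.9% of HFD cells (61.1 to 72.3%), and also Ppy-high in 34.02% and 32.4%. Gcg and Sst were the pair found together least often among these 4 genes at the 1% level, in 20 WT cells (20.6% of Gcg-high cells) and 57 HFD cells (20.1%). From 5% of UMIs this order turned in HFD, where 10.4% of Gcg-high cells were also Sst-high and 8.71% also Ppy-high. The most frequent combination in both libraries was Sst with Ppy and Pyy, in 64 WT and 119 HFD cells, and Gcg, Sst, Ppy and Pyy were all high in 14 WT and 33 HFD cells. Pyy alone was high in 6 WT and 21 HFD cells, all of which held at least 20% insulin.

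**Figure D2:**
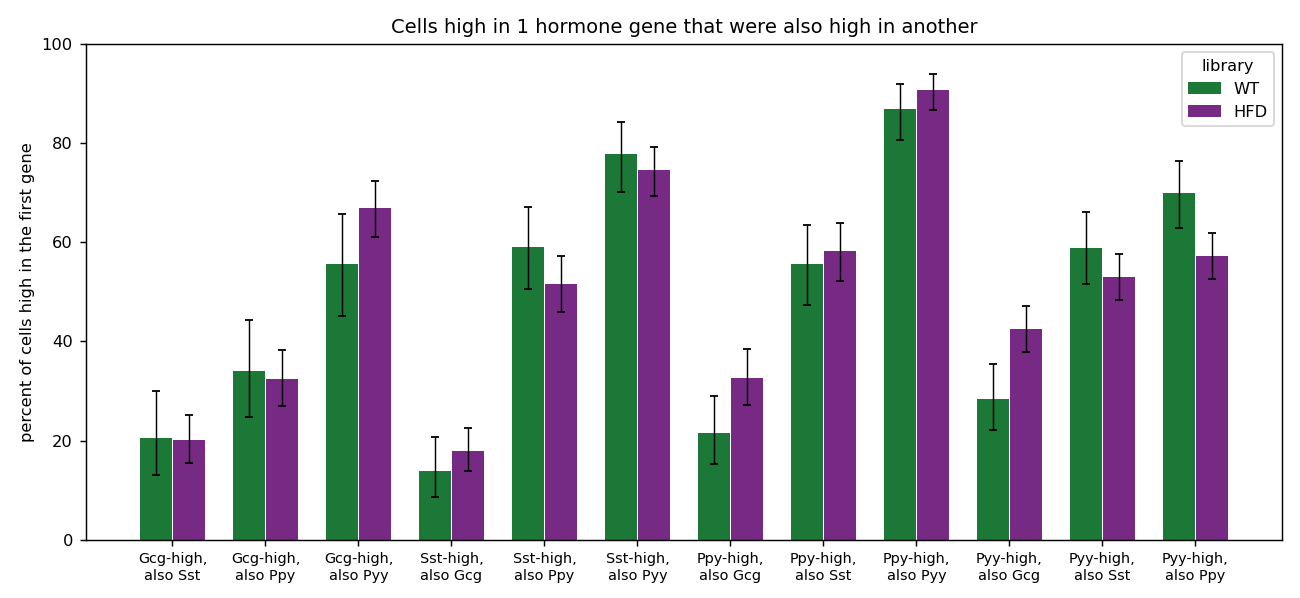
Percent of cells high in the first gene (at least 1% of UMIs) that were also high in the second, for each ordered pair of Gcg, Sst, Ppy and Pyy in the WT and HFD libraries, with exact Clopper-Pearson 95% intervals. The tallest bars are Ppy-high cells also high in Pyy (86.9% and 90.8%), and the lowest are Sst-high cells also high in Gcg (13.9% and 17.9%).

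To see what accompanied each hormone, the cells below 20% insulin were grouped by the member with the most UMIs. Gcg led 55 of 133 WT cells and 199 of 361 HFD cells, Sst led 48 and 108, Ppy 23 and 47, and Pyy 7 and 7. Gcg, Sst and Ppy reached like shares in both libraries in the cells they led. The median was 30.8% of UMIs in WT and 30.8% in HFD for Gcg, 15.3% and 16.9% for Sst, and 29.2% and 30.1% for Ppy. In the 7 cells of each library led by Pyy it was 7.88% in WT and 14.9% in HFD.

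Cells led by Sst were nearly all Pyy cells as well. Pyy reached 1% in 47 of 48 WT and 107 of 108 HFD cells led by Sst, with median shares of 3.72% and 4.35%, and Ppy reached 1% in 38 and 83 of them. Gcg did so in 1 WT cell and 1 HFD cell. Every cell led by Ppy was Pyy-high, with a median Pyy share of 7.37% in WT and 8.49% in HFD.

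Cells led by Gcg were less uniform. Pyy reached 1% in 32 of 55 WT cells (58.2%) and 145 of 199 HFD cells (72.9%), with medians of 1.51% and 2.47% over all cells led by Gcg, and it was graded, since 17 WT and 38 HFD cells lay between 0.1% and 1%. Sst was not graded in the same cells: it was below 0.1% in 46 WT and 161 HFD cells, at 1% or more in 9 and 36, and in between in 0 and 2. The Gcg-led cells with high Sst had a median of 23340 UMIs in WT against 10317.5 in the other Gcg-led cells, and 6231.5 against 4239 in HFD. Their median Gcg share was 13.1% against 32.9% in WT and 20.1% against 33.4% in HFD. None of them was among the highest doublet scores of Scrublet in either library, and the part of doublets in these cells was not tested.

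**Figure D3:**
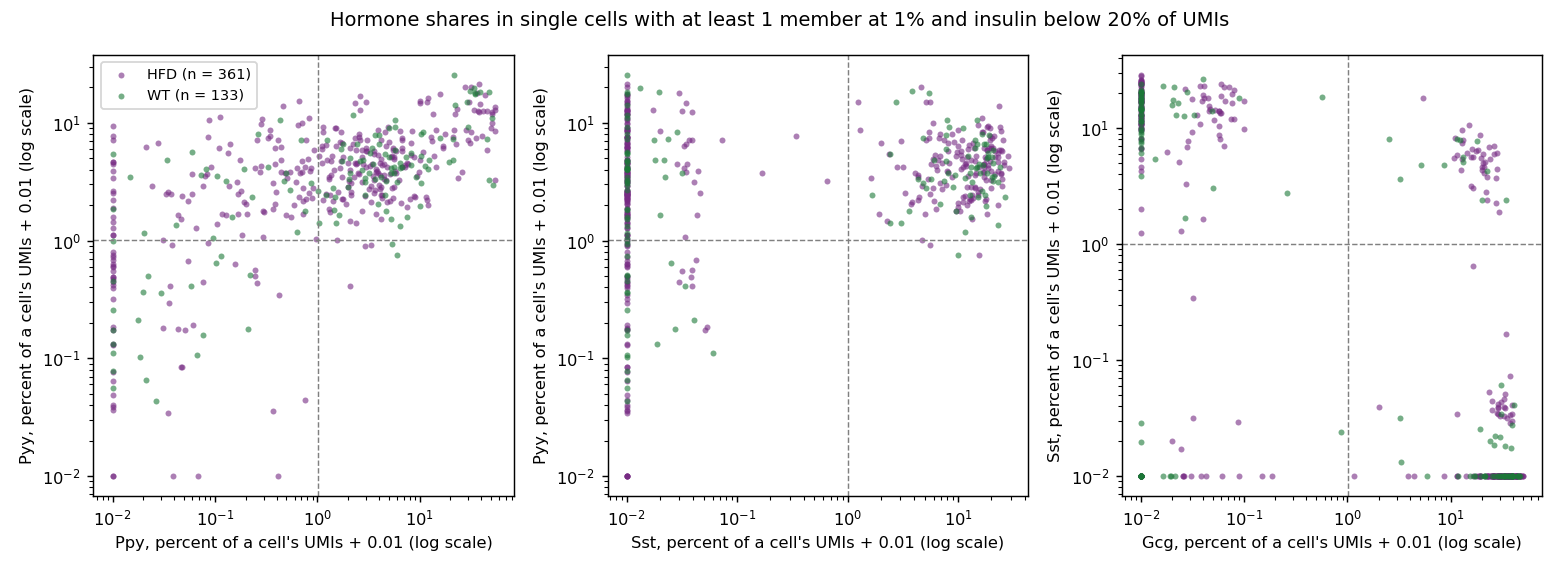
Share of a cell's UMIs taken by 2 hormone genes (both axes log, with 0.01 added) in the 133 WT and 361 HFD cells with at least 1 member at 1% and insulin below 20%, with dashed lines at 1%. Ppy and Pyy spread as 1 continuous cloud, Pyy is above 1% in nearly every Sst-high cell, and Gcg and Sst form separate groups with almost no cell at an intermediate Sst share.

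**Figure D4:**
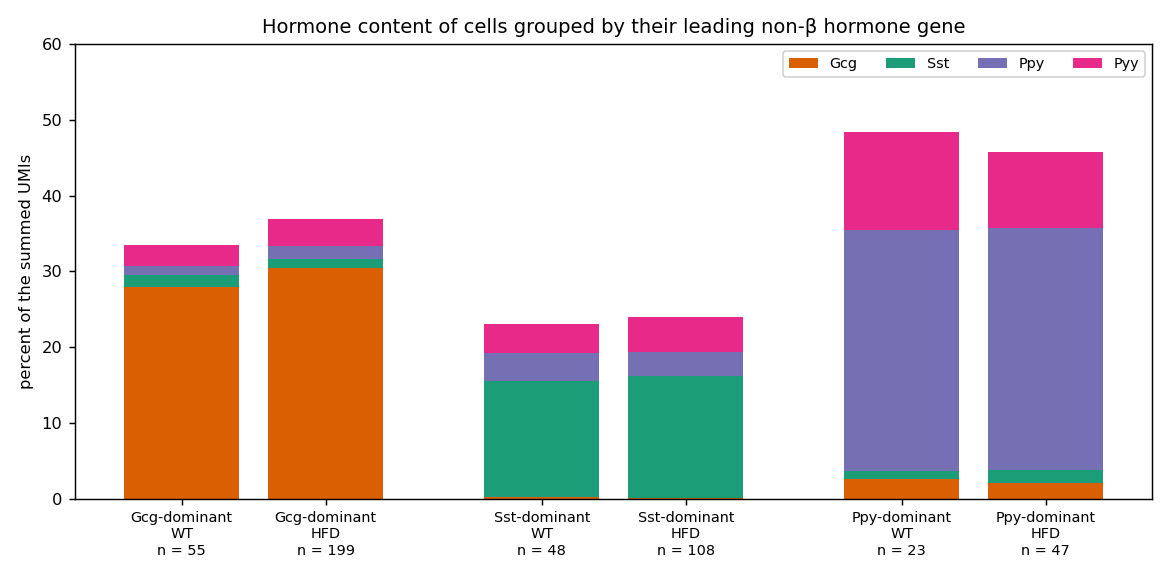
Percent of summed UMIs taken by each of 4 hormone genes in cells led by Gcg, Sst or Ppy, by library, with the number of cells below each bar. Ppy-led cells carried 12.9% Pyy in WT and 9.95% in HFD, Sst-led cells 3.87% and 4.64%, and Gcg-led cells 2.77% and 3.58%.

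Insulin was the other partner. Of the cells with at least 20% insulin, 143 in WT (7.07%) and 266 in HFD (4.12%) had a member at the high level. These cells held more UMIs than the other insulin cells, with medians of 37220 against 29424 in WT and 14598.5 against 12201 in HFD. They were also more often among the highest Scrublet scores, 9.79% against 4.47% in WT and 18.0% against 9.11% in HFD, and held a lower insulin share, 45.6% in both libraries against 60.7% and 57.4%. How many were doublets was not tested.

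Across all kept cells the genes that followed each member were named by the lower of the Pearson correlations in the libraries, over 2600 WT and 7297 HFD cells and 13691 genes, as a description of cells that share a library and differ in depth. Among the genes most like Gcg were Ttr (0.79 in WT and 0.77 in HFD), Gpx3, Gnas and Higd1a. Ttr was also a marker in the naming of α-like cells. For Sst they were the retinol carrier Rbp4 (0.84 and 0.85), itself a δ marker here, Ly6h, the arginase Arg1, Fam159b and Gap43.

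Ppy and Pyy had the same 5 genes in different orders: the tetraspanin Tspan8, Rbp4, the glutathione peroxidase Gpx3, the calcium buffer Calb1 and Arg1. For Ppy the values were highest for Tspan8 (0.57 and 0.56), and for Pyy they were highest for Rbp4 (0.72 and 0.77). Each of these was below the correlation of Ppy with Pyy, 0.85 in WT and 0.79 in HFD. Pyy correlated with Sst at 0.63 and 0.64 and with Gcg at 0.37 and 0.50, and Gcg with Sst at 0.06 and 0.08. Ghrl was found in too few cells to be ranked. Within α-like cells, Spearman's rho of Ppy with Pyy was 0.57 (n = 64) and 0.62 (n = 218), and that of Gcg with Sst was -0.46 and -0.50.

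Ghrl was present in WT and nearly absent from HFD, and this rested on 4 cells. WT held 5403 Ghrl UMIs (75.2 CPM) and HFD 2 UMIs (0.0216 CPM). Of the WT UMIs, 5364 were in the 4 cells, and the other 39 were single UMIs in as many cells. The 4 Ghrl-high cells were 0.154% of the WT cells (0.0419 to 0.393%), and 0 of 7297 HFD cells allows a share of up to 0.0411% at 3 counts. The ratio of these shares had an upper counting limit of 0.540.

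The 4 cells held 2832, 1474, 543 and 515 Ghrl UMIs, which were 3.77%, 8.21%, 7.43% and 7.35% of their UMIs. All 4 were β-like by their other genes and carried several hormones at once. Ppy made up 10.4%, 15.6%, 15.6% and 15.6% of their UMIs and Pyy 4.82%, 7.41%, 9.14% and 7.82%, and Gcg made up 3.29 to 5.51% and insulin 24.7 to 34.1%. Sst was at or near 0 in all 4, so the combination Gcg, Ppy, Pyy and Ghrl occurred in these cells and in no other.

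Their sizes were unlike. The first held 75059 UMIs, 6559 genes and 4.88% mitochondrial UMIs, against medians of 28918 UMIs, 3621 genes and 3.68% in WT β-like cells. The other 3 held 17944, 7305 and 7007 UMIs, 1258 to 2768 genes and 0.307 to 0.438% mitochondrial UMIs. Despite these sizes their profiles, on the square root of the shares, correlated with each other at 0.854 to 0.875 over the 6 pairs. With other WT β-like cells the median was 0.635 (highest 0.891). The profiles included the hormone and insulin genes, and the cells had been picked by Ghrl, so these values are a description. In 2 of the 4 the Scrublet score was among the highest, and whether they are separate cells was not tested.

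Cells that should not make the hormones set the floor for all of these values. In the 184 WT and 381 HFD endothelial-like and immune-like cells together, no cell was high in any member. Gcg was the most frequent member, with 55 UMIs in WT (48.1 CPM) and 146 in HFD (143 CPM). It was followed in WT by Ppy (35.9 CPM), Sst (15.8 CPM) and Pyy (11.4 CPM), and in HFD by Sst (47.0 CPM), Pyy (34.3 CPM) and Ppy (31.3 CPM). Ghrl had no UMI in either, which allows up to 2.63 CPM in WT and 2.94 CPM in HFD at 3 counts. α-like cells held Gcg at 4779 times the WT floor and 1870 times the HFD floor, and δ-like cells held Pyy at 3692 and 1211 times.

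Gcg at the floor kept a like ratio to insulin across cell types. Per 1000 Ins2 UMIs there were 14.0 Gcg UMIs in WT endothelial-like and 11.1 in WT immune-like cells, 17.2 and 13.2 in the HFD ones, and 10.3 and 10.4 over all barcodes of WT and HFD. The floor was higher per UMI in HFD for 3 of the 4 members found there, with ratios of 2.97 (2.16 to 4.13) for Gcg, 2.98 (1.70 to 5.45) for Sst and 3.01 (1.55 to 6.20) for Pyy. For Ppy it was 0.873 (0.532 to 1.42). In these cells 13.4% of 8193 genes with at least 20 UMIs differed 2-fold or more, and the insulin genes summed to 5077 CPM (WT) and 13234 CPM (HFD).

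Floor cells were shallower in HFD, with a median of 1980 UMIs against 4729.5. Counted per cell, the floor was alike for Gcg, with 29.9 UMIs per 100 cells in WT and 38.3 in HFD (ratio 1.28, 0.934 to 1.78). The ratio per cell was 1.29 (0.736 to 2.35) for Sst and 1.30 (0.671 to 2.68) for Pyy, so the intervals of these 3 genes hold 1. For Ppy the floor per cell was lower in HFD, with 22.3 and 8.40 (0.377, 0.230 to 0.613). The types differed too, since T-like cells numbered 1 in WT and 159 in HFD. Within endothelial-like cells alone the CPM ratio was 2.68 (1.81 to 4.02) for Gcg and 0.566 (0.258 to 1.15) for Ppy.

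β-like cells, which were deeper than the floor cells, were set against this floor per UMI. In β-like cells with no member at the high level, Gcg was at 1.18 times the floor in WT (0.903 to 1.57) and 0.636 times in HFD (0.540 to 0.754). Counted per cell Gcg was above the floor in both libraries. It had 3501 UMIs in 1953 WT and 7777 in 6199 HFD β-like cells, against 55 in 184 and 146 in 381 floor cells. The source of Gcg in these β-like cells was not tested. Sst was at 12.8 times the floor in WT (8.10 to 21.6) and 3.50 times in HFD (2.64 to 4.75), and Pyy at 16.4 times (9.61 to 30.9) and 4.35 times (3.12 to 6.24). Ppy was at 3.24 times (2.39 to 4.53) in WT and 3.63 times (2.57 to 5.31) in HFD. The median of these cells held no UMI of Sst, Ppy or Pyy in either library. In the β-like cells with every member under 0.1%, 1848 in WT and 6029 in HFD, Gcg was at 0.512 and 0.573 times the floor. Sst was at 0.754 and 0.392 times, Ppy at 0.705 and 0.918 times, and Pyy at 1.55 (0.903 to 2.92) and 0.627 times. Leaving out the cells with a member between 0.1% and 1% lowers such ratios by itself, and the floor cells were not cut in the same way. Since these cells were picked by the values compared, the ratios are a description.

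The share of β-like cells with at least 1 Gcg UMI was 50.2% in WT and 63.3% in HFD. After each cell was thinned to 2000 UMIs it was 7.42% and 16.6%. In endothelial-like cells the thinned shares were 11.6% (6.66 to 18.5%) and 20% (13.0 to 28.7%), with intervals that hold the β-like values. Their unthinned shares were 21.0% and 31.2%. Median depths were 28918 and 12274 UMIs in β-like and 4692.5 and 3175 UMIs in endothelial-like cells, so thinning removed more of the UMIs of β-like cells. For Ppy the thinned share was 13.5% in WT β-like cells and 12.4% (7.26 to 19.4%) in WT endothelial-like cells, and 11.2% and 4.55% in HFD. For Sst it was 9.07% and 2.33% in WT and 7.92% and 6.36% in HFD, and for Pyy 13.5% and 4.65% in WT and 9.43% and 0.909% in HFD. Thinning left out 88 and 13 β-like cells and 9 and 44 endothelial-like cells.

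Summed over the ductal-like cells of WT, Sst (417 CPM) and Pyy (170 CPM) were above the floor, while Gcg (25.2 CPM) was lower and Ppy (43.4 CPM) was near it. Of the 58 cells, the 57 with every member under 0.1% held 6 of the 413 Sst UMIs and 8 of the 169 Pyy UMIs. Any Sst UMI was found in 12.1% of the 58 cells, and the highest cell reached 8243 CPM. In HFD ductal-like cells Sst was at 39.6 CPM.

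Summed over all kept cells, the members differed in how the libraries compared. Gcg was level within counting error, with 4165 CPM in WT and 4153 CPM in HFD (ratio 0.997, 0.992 to 1.002). Sst was lower in HFD, 1579 against 2282 CPM (0.692, 0.687 to 0.697), and so was Pyy, 1563 against 2590 CPM (0.604, 0.599 to 0.608). Ppy was lowest relative to WT of the 4, 1864 against 3772 CPM (0.494, 0.491 to 0.497). Ppy and Ghrl passed 2-fold, beside 13.4% of 14989 genes. The median of all these genes was at -0.15 on the log2 scale, and with TMM scaling, which sets most genes level, Gcg was at 1.11 and Ppy at 0.550.

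The Ppy ratio moved to 0.518 without the 4 Ghrl-high cells, which ended its 2-fold difference. A maximum of 15000 UMIs per cell, which removes the deeper cells, took the ratios to 0.254 for Gcg, 0.209 for Sst, 0.222 for Ppy and 0.263 for Pyy. In bulk sums of this kind, fewer cells of a type and less RNA per cell cannot be told apart.

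**Figure D5:**
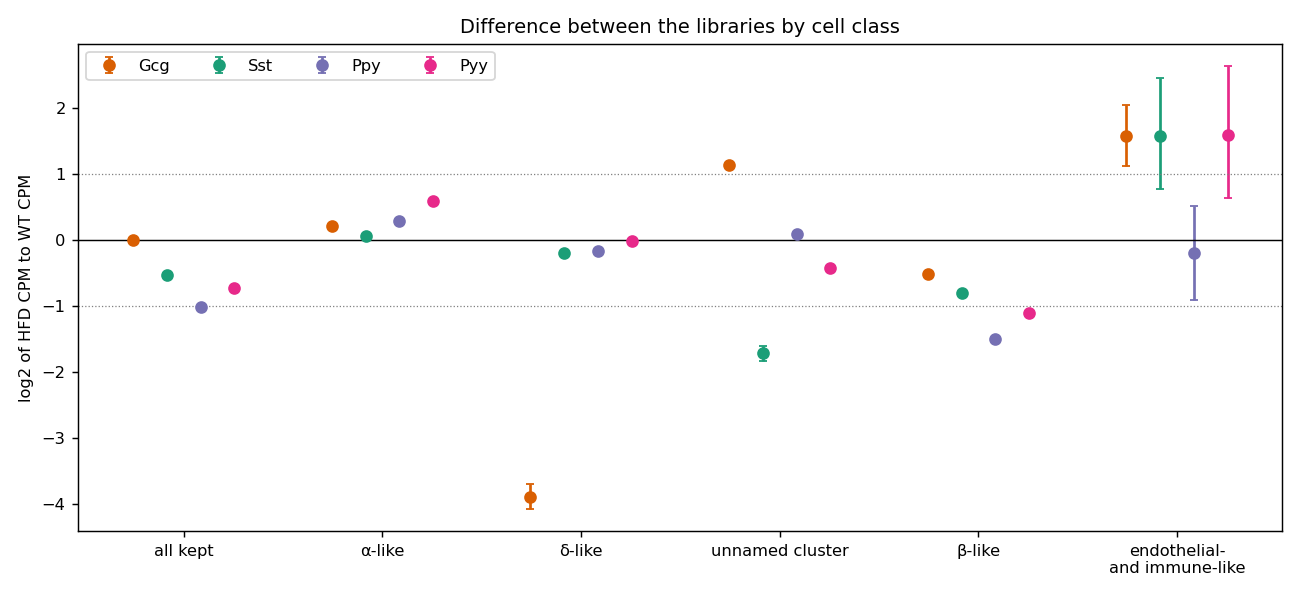
Log2 of the HFD level over the WT level (CPM) for 4 hormone genes in all kept cells and in 5 classes, with exact conditional 95% intervals that are hidden behind the points for large counts and with dotted lines at 2-fold. In α-like cells all 4 lie between 0.06 and 0.59, in β-like cells all 4 lie between -0.52 and -1.503, and Gcg lies at -3.90 in δ-like cells.

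Within each class the leading hormone differed little, with ratios from 0.866 to 1.16. In α-like cells Gcg was higher in HFD by a ratio of 1.16 (1.16 to 1.17), Ppy by 1.22 (1.20 to 1.25) and Pyy by 1.504 (1.48 to 1.53), and Sst was at 1.04. None passed 2-fold, where 6.23% of 7323 genes did. These α-like sums also held insulin, 111251 CPM in WT and 68038 CPM in HFD, and WT cells were deeper, 11693 against 4629.5 UMIs in the median.

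In δ-like cells Sst was at 0.866 (0.857 to 0.876) in HFD, Ppy at 0.887 and Pyy at 0.988 (0.968 to 1.01). Gcg alone passed 2-fold, with 7627 CPM in WT against 512 CPM in HFD (0.0672), where 6.38% of 5080 genes did. That value rested on 3 cells high in Gcg, 2 in WT and 1 in HFD, and without them the ratio was 0.794. In the cells of the unnamed cluster Ppy was at 1.06 (1.05 to 1.07) and Pyy at 0.743 (0.731 to 0.755). Gcg there was at 2.19 and Sst at 0.303, past 2-fold with 8.55% of 2071 genes, in 3 WT and 9 HFD Gcg-high cells and in 4 WT and 2 HFD Sst-high cells.

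In β-like cells every member was lower in HFD. The ratio was 0.699 for Gcg, 0.569 for Sst, 0.464 for Pyy and 0.353 (0.349 to 0.356) for Ppy, and Ppy, Pyy and Ghrl passed 2-fold beside 5.43% of 13781 genes. These values came from the few β-like cells with a member at the high level. Without them the ratio of Ppy was 0.977, that of Sst 0.815 and that of Pyy 0.797. That of Gcg, which per UMI was at or below the floor in the remaining cells, turned to 1.60. The HFD library also held a smaller share of such cells among insulin cells, as given above.

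Over the high cells themselves, each hormone differed little. Gcg in Gcg-high cells was at 1.28 in HFD, where fewer of these cells held at least 20% insulin (25% against 36.1%), and in the cells led by Gcg below 20% insulin it was at 1.09. In the other sets, Sst in Sst-high cells was at 1.08, Ppy in Ppy-high cells at 0.994 and Pyy in Pyy-high cells at 0.899. None passed 2-fold, beside 5.11% of genes in Gcg-high, 3.57% in Sst-high, 4.11% in Ppy-high and 3.52% in Pyy-high cells. Since the cells were picked by the hormone itself, these ratios are a description. With at most 15000 UMIs per cell Gcg was at 0.857, on the other side of 1, and Sst at 0.430, past 2-fold.

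No gene of hormone processing passed 2-fold in the main endocrine classes. Of the 8 listed, 7 were measured in α-like, δ-like and β-like cells, and 0 passed, where 6.23%, 6.38% and 5.43% of all genes did, so a count of 0 is near the background. The median log2 ratio of the list was 0.03 in α-like cells (all genes -0.14), -0.12 in δ-like cells (all genes -0.09) and 0.10 in β-like cells (all genes -0.05). Pcsk2, the convertase that makes glucagon from proglucagon, was at 3030 and 2456 CPM in WT and HFD α-like cells (0.811, 0.771 to 0.853), and Pcsk1, the convertase that yields GLP-1 in gut cells, was at 23.6 and 26.3 CPM.

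Carboxypeptidase E (Cpe), which trims the cut peptides, was at 869 and 1130 CPM in δ-like cells (1.30, 1.14 to 1.49). The amidating enzyme Pam, which finishes pancreatic polypeptide and peptide YY, was at 324 and 220 CPM in the cells of the unnamed cluster (0.681, 0.463 to 0.985). Mboat4, the acyltransferase that activates ghrelin, had 7 UMIs in WT and 6 in HFD β-like cells, too few to compare.

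Receptors were sparse. The list held those of these hormones and Gipr, the receptor of the incretin GIP, which none of the 5 genes encodes. Of 14 listed, 7 had at least 20 UMIs over all kept cells, with a median log2 ratio of -0.54, and 1 of them passed 2-fold there: Npy1r, with 23 UMIs in WT and 6 in HFD (ratio 0.202, 0.0673 to 0.510). A count of 1 in 7 is near the 13.4% of all genes. In α-like cells 2 were measured, Sstr2 at 26.5 and 22.2 CPM in WT and HFD (0.837, 0.472 to 1.48) and Sstr3 at 35.3 and 34.5 CPM. Sstr2 mediates the action of somatostatin on α cells, and of its 39 WT and 41 HFD UMIs 27 each were in α-like cells.

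In β-like cells 4 receptors were measured. The glucagon receptor Gcgr was at 9.53 and 7.98 CPM in WT and HFD (0.837, 0.751 to 0.933), Gipr at 26.9 and 17.1 CPM (0.635, 0.593 to 0.680) and Glp1r at 2.21 and 1.46 CPM (0.662, 0.519 to 0.843). Sstr3 was at 42.3 and 40.5 CPM (0.956, 0.910 to 1.005). No receptor passed 2-fold in α-like, δ-like or β-like cells. In hormone-high cells Gipr passed it at 0.434 in Gcg-high, 0.474 in Ppy-high and 0.456 in Pyy-high cells, and Sstr2 at 2.45 (1.03 to 6.09) in Ppy-high cells, where 5.11%, 4.11% and 3.52% of all genes did in the 3 sets. Gipr was mainly a β-like transcript, with 1803 of its 1831 WT UMIs there. Cells with at least 20% insulin made up 36.1% of WT and 25% of HFD Gcg-high cells, 44.4% and 27.7% of Ppy-high cells and 42.6% and 31.5% of Pyy-high cells, and the part of this in the Gipr ratios was not tested.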

How the data were processed

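Counts were deposited by the authors as raw UMI counts per gene and barcode, produced, per the labels and the study's methods, by version 3.0.2 of Cell Ranger against mm10. The 5 members, the gene lists and the cuts were chosen with earlier results of these data known. Named genes were the members, their 5 most similar genes, and listed receptor and processing genes with at least 20 UMIs. Of the genes most similar to Gcg, 1 is not reported here.

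The deposited libraries held 73843674 (WT) and 94375138 UMIs (HFD). Cells of both were clustered together with scanpy (v1.11.5) and igraph (v0.11.9): 2000 variable genes without the hormones and Cck, 50 components, 15 neighbours and Leiden resolution 1, with mixed clusters split again at 0.5. Classes were named from 13 marker lists by at least 3 detected markers. The scoring, including a marker minimum of 0.2 per 10000 UMIs, was set after clusters had been seen, as were bins between 0.1% and 1%. The automatic Scrublet threshold called 1 WT and 0 HFD barcodes and was judged not to work. No doublets were removed, and leaving out the highest scores (121 WT and 641 HFD barcodes) was an alternative. A gene had to have at least 20 UMIs over both libraries to be counted against 2-fold.

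Sums carry exact Poisson, shares exact Clopper-Pearson and ratios exact conditional 95% intervals (scipy v1.17.1). Interval coverage was tested on simulated Poisson counts, which lack the spread between cells, so that test covers counting error only. TMM factors came from edgeR (v4.0.16). Gene positions came from GENCODE for GRCm38, the assembly of mm10, and gene identifiers matched those of the files.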

Additional observations from a re-analysis of the deposited data

Results flagged for a closer look

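The level of each of 4 members moved in opposite directions between the libraries in different cell classes, with counting intervals on opposite sides of no change. These differences between classes were not tested, since each class had 1 library per diet.

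The log2 difference between the libraries (HFD minus WT) was 5.47 greater in endothelial- and immune-like cells than in δ-like cells for Gcg, a value that rests on 3 δ-like cells high in Gcg. For Sst it was 3.30 greater in endothelial- and immune-like cells than in the cells of the unnamed cluster, where 4 WT and 2 HFD cells held most of the UMIs. For Pyy it was 2.70 greater in endothelial- and immune-like cells than in β-like cells. For Ppy it was 1.79 greater in α-like than in β-like cells. Counted per cell, the HFD to WT ratios of Gcg, Sst and Pyy in endothelial- and immune-like cells were 1.28, 1.29 and 1.30, with intervals that hold 1.

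Barcodes left out by the filters on genes and mitochondrial UMIs held Gcg at 1047 CPM in HFD and 819 CPM in WT (ratio 1.28, 1.19 to 1.37). In the same barcodes Sst, Ppy and Pyy were lower in HFD, at ratios of 0.656, 0.408 and 0.439. A check for samples that stand apart within a group was not possible with 1 library per group.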

How the results depend on the processing

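No paired analysis was possible because each diet had 1 library, and for the same reason leaving out a library left nothing to compare. Classes were kept as first clustered in all settings, and 1 setting turned the direction of ratios past 2-fold: in β-like cells with every member under 0.1%, also chosen after seeing the data, the ratios to the floor were 0.754 (WT) and 0.392 (HFD) for Sst, 0.705 and 0.918 for Ppy and 0.627 (HFD) for Pyy. Where a value left its counting interval, the cause was not tested.

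Over all kept cells, the HFD to WT ratios of Gcg, Sst, Ppy and Pyy were 0.997, 0.692, 0.494 and 0.604. They were 0.254, 0.209, 0.222 and 0.263 with at most 15000 UMIs per cell, 1.04, 0.714, 0.525 and 0.630 without the highest Scrublet scores, and 0.946, 0.654, 0.481 and 0.590 with at least 1000 genes. Scaling without hormone and mitochondrial genes gave 0.947, 0.657, 0.469 and 0.573, TMM gave 1.11, 0.770, 0.550 and 0.671, and the mean of single cells gave 1.25, 0.873, 0.689 and 0.858. With at most 10% mitochondrial UMIs Sst was at 0.737 and Pyy at 0.616. Without the 4 Ghrl-high cells, a setting chosen after seeing the data, Gcg was at 1.01, Ppy at 0.518 and Pyy at 0.623, and δ-like cells without high Gcg and β-like cells without high members were also chosen then. The ratio of Ghrl was 0.000287 and became 0.00151 without the highest Scrublet scores.

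In cells high in the same gene, the ratios of Gcg, Sst, Ppy and Pyy were 0.857, 0.430, 0.862 and 0.823 with at most 15000 UMIs, 1.36, 1.06, 0.857 and 0.880 from 0.5% of UMIs, and 1.18, 1.01, 1.23 and 0.778 from 5%. They were 1.22, 1.02, 0.914 and 0.844 without hormone and mitochondrial genes in the scaling, 1.38, 1.11, 0.982 and 0.918 with TMM, and 1.20, 1.11, 1.03 and 1.03 as means of cells. Without the highest Scrublet scores Gcg was at 1.30, Sst at 1.12 and Pyy at 0.944, with at least 1000 genes Gcg was at 1.25 and Sst at 1.03, and with at most 10% mitochondrial UMIs Sst was at 1.13 and Ppy at 0.977. In floor cells Ppy moved to 0.487 with at least 1000 genes.

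The HFD to WT ratio of the share of high cells was 0.707 for Gcg, 0.488 for Ppy and 0.604 for Pyy with at most 15000 UMIs, and 1.03 for Pyy from 5%. Ppy-high cells that were also Pyy-high made 94.2% in WT from 0.5%, 45.2% in WT and 64.3% in HFD from 5%, and 93.6% in WT with at most 15000 UMIs. Cells high in 2 or more members made 77.1% in WT and 78.5% in HFD from 0.5%, 42.3% and 40.1% from 5%, and 80.3% and 78.3% with at most 15000 UMIs. Genes past 2-fold numbered 2015 over all cells and 1101 in floor cells, 1064 and 290 with at least 100 UMIs, and 3176 and 2617 with no minimum. Thinned to 1000 UMIs, 5.01% of WT and 9.41% of HFD β-like cells had a Gcg UMI.

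Some values rested on few counts or cells: Sst and Pyy on 18 and 13 UMIs in the WT floor, Ghrl on 4 cells, and the unnamed cluster on 17 and 30 cells.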

Other observations

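A few classes outside the endocrine islet held hormone RNA in single cells. In the 4 acinar-like cells of HFD, Sst stood at 7866 CPM, Pyy at 4005 CPM and Ppy at 2074 CPM, and all 440 Sst UMIs came from 1 cell that was high in a member. In the 7 Schwann-like cells of WT, Pyy stood at 4938 CPM, Gcg at 4808 CPM, Sst at 3794 CPM and Ppy at 2420 CPM. For each of these genes only 1 of the 7 cells was high. The 4 Schwann-like cells of HFD held 1 Gcg UMI and none of the other 4 genes.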
